A study of Mus musculus with 12 samples.

Results

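The genes Zscan4c, Zscan4d, Zscan4f, Zfp352, Tcstv1, Tcstv3 and Usp17lc are known for their burst of transcription at the 2-cell stage of the mouse embryo, and their level was followed in 8-cell embryos after knockdown (KD) of Nr5a2 and Klf5. They were chosen by name, as 7 of the 55401 genes with a row in the count files. RNA-seq libraries were made from pools of 10 embryos in 4 groups. Control had 2 libraries, Nr5a2 KD and Klf5 KD had 3 each, and the double knockdown of both (Nr5a2 Klf5 dKD) had 4. Zygotes from B6129F1 females mated with B6CBAF1 males were microinjected with siRNA, at 5 µM against Nr5a2, 10 µM against Klf5 or 15 µM for the control siRNA, and the concentrations combined for the dKD are not given in the sources used here. Embryos of every group, control included, also received the injection marker H2B-EGFP at 150 ng/µl, and siRNA lowers a transcript without removing the gene.

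When the mouse zygotic genome is switched on, a set of genes is transcribed strongly and briefly at the 2-cell stage, and rare embryonic stem cells that re-enter a similar state transcribe the same set. Zscan4 genes encode proteins with a SCAN domain and zinc fingers and are linked to telomere maintenance, Zfp352 encodes a zinc finger protein, Tcstv genes are named as 2-cell-specific transcript variants, and Usp17l genes encode deubiquitinating enzymes. Several of them are multicopy genes, and the transcription factor DUX is known to activate many of them.

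Each library held 6676683 to 12560926 counts on genes, and a level is given as counts per 1000000 counts (CPM) after scaling by TMM factors. In control, Nr5a2 stood at 217 CPM and Klf5 at 455 CPM. The Nr5a2 siRNA left Nr5a2 at 14.7% of control in Nr5a2 KD and at 13.7% in dKD, while Klf5 was at 30.6% in Nr5a2 KD, 24.5% in Klf5 KD and 12.3% in dKD. Of 8 marker genes of the early embryo, Dppa3, Dppa5a, Tfap2c, Pou5f1 and Nanog had counts in every library, while Cdx2, Sox2 and Eomes were at 0 in 8, 9 and 3 of the 12 libraries. Markers of cumulus cells summed to at most 2.2 CPM in a library. The mitochondrial share of the counts was 4.41% to 6.75% in Nr5a2 KD replicate 3, Klf5 KD replicate 1 and dKD replicates 3 and 4, and 8.28% to 13.2% in the others. The labels do not say that libraries came from separate collections of embryos, so p-values measure only the spread between these libraries.

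The near-identity of the Zscan4 copies decides which of their reads could be counted, because read pairs that map to several places were left out. Zscan4c (ENSMUSG00000054272) lies at chr7:11005745-11010547 on the plus strand of GRCm38, Zscan4d (ENSMUSG00000090714) at chr7:11161374-11166159 on the minus strand, and Zscan4f (ENSMUSG00000070828) at chr7:11397915-11402318 on the plus strand. Their annotated transcripts were 99.6% identical between Zscan4c and Zscan4f, 97.5% between Zscan4c and Zscan4d, and 97.8% between Zscan4d and Zscan4f. Over the coding sequence of 1518 bases, 38 positions differed among the 3 genes. The following 100 bases, coding positions 666 to 765, are shown because they hold 8 of the differing positions, printed in capitals, and show what a read must cross to be assigned.
Zscan4c: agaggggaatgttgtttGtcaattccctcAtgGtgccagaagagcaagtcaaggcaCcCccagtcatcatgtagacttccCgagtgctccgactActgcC
Zscan4d: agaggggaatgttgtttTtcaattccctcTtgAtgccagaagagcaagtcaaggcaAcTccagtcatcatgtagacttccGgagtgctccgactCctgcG
Zscan4f: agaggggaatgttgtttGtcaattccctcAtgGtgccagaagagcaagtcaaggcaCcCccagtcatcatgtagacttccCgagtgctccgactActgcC
Zscan4d differs from the other copies at all 8 of these positions, and Zscan4c and Zscan4f are the same letter for letter in this window. The windows lie at chr7:11009141-11009240, chr7:11162677-11162776 and chr7:11401334-11401433, in this order. Of all stretches of 100 bases in the annotated transcripts, 72.8% in Zscan4c, 29.6% in Zscan4d and 80.6% in Zscan4f also occur in another annotated gene.

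The other members differ widely in this respect. Stretches shared with another gene made up 0.643% of Zfp352, 3.58% of Tcstv1, 7.79% of Tcstv3 and 32.3% of Usp17lc. Zfp352 (ENSMUSG00000070902) lies at chr4:90218820-90225702 on the plus strand. Tcstv1 (ENSMUSG00000096284, chr13:119893388-119894785, minus strand) and Tcstv3 (ENSMUSG00000095821, chr13:120316878-120318178, plus strand) were 89.7% identical over 775 aligned bases. Usp17lc (ENSMUSG00000058976) lies at chr7:103415072-103419880 on the plus strand, and its transcript was 97.9% identical to that of Usp17ld. No member shares an exon base with another listed gene. Read pairs lying wholly in shared stretches could not be assigned, so the values of Zscan4c, Zscan4d, Zscan4f and Usp17lc are uncertain as levels of these copies. How many pairs this concerns was not measured.

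RefSeq promoters, from 250 bases before to 50 after the start, were found for 5 of the 7 members on GRCm38.p6. That of Zfp352, the only member called in a comparison, is shown with every TAATCC in capitals. These are letters known from homeodomain binding sites.
Zfp352, chr4:90218570-90218869, plus strand: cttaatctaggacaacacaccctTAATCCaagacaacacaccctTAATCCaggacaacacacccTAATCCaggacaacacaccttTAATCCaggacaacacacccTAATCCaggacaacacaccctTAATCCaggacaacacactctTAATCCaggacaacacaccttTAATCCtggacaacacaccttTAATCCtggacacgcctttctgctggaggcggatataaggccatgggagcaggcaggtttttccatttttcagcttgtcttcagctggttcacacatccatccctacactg
The window repeats TAATCC 9 times, counted on both strands, the most in any of 32851 promoter windows, of which 7.06% hold at least 1. The Zscan4d promoter is shown for 2 motifs that the promoters of Zscan4c and Zscan4f also hold once each. Capitals mark AAGGTCA, letters known from NR5A2 sites (here on the opposite strand), and then CCNCNCCC, a box known for KLF factors.
Zscan4d, chr7:11166099-11166398, minus strand: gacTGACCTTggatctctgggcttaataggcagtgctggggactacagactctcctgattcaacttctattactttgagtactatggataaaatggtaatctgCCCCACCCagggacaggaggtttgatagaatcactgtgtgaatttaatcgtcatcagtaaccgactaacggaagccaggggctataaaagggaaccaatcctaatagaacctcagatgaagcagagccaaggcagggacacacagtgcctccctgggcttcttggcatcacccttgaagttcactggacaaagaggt
Searched on both strands and with no overlap between these matches, AAGGTCA occurred in 4.72% of all promoter windows and CCNCNCCC in 49.5%. The Zfp352 window held neither motif, and that of Usp17lc held CCNCNCCC alone. A match is a description of letters and not a binding site.

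All 7 genes were low at the 8-cell stage. Per kilobase of exon, the mean level in control was highest for Tcstv3, at 7.01 CPM per kb, followed by Zscan4d at 0.845, Tcstv1 at 0.701, Usp17lc at 0.355, Zfp352 at 0.251, Zscan4c at 0.188 and Zscan4f at 0.150 CPM per kb. In dKD the order was Tcstv3 at 6.52, Tcstv1 at 3.01, Zfp352 at 1.75, Zscan4d at 0.529, Zscan4c at 0.494, Zscan4f at 0.227 and Usp17lc at 0.212 CPM per kb. In control the ranges of neighbours in this order overlapped, except those of Tcstv3 and Zscan4d and those of Zfp352 and Zscan4c, and in dKD they overlapped except those of Zfp352 and Zscan4d. The levels of Zscan4c, Zscan4d, Zscan4f and Usp17lc are divided by the full exon length. This includes shared stretches, where pairs that map to several places were left out, so these levels may be understated. Tcstv3 had at least 10 counts in all 12 libraries and Zfp352 in 10 of them, whereas Zscan4f reached 10 counts in 1 library and Usp17lc in 2. Zscan4c was at 0 in 4 libraries, Usp17lc in 3, and Zscan4d and Zscan4f in 2 each. A count of 0 allows up to 3 counts, which is 0.269 to 0.454 CPM at these depths, and covers counting error only. In pools of whole embryos, a change in the number of cells that transcribe a gene and a change in the RNA per cell cannot be told apart.

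**Figure D1:**
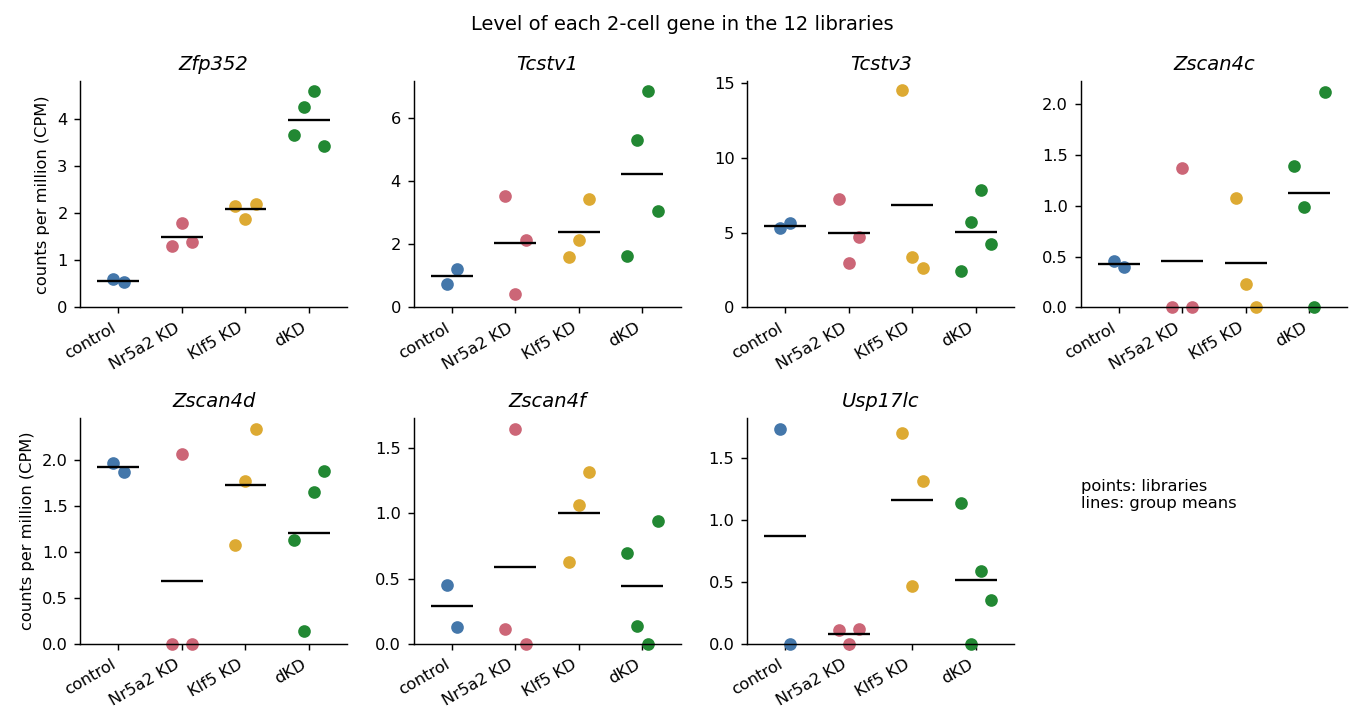
Level of the 7 genes (CPM, linear axis from 0, 1 panel a gene) in each library by group, with points for libraries and lines for group means. At this TMM scaling the groups of Zfp352 do not overlap, from 0.570 CPM in control to 3.98 CPM in dKD, though Nr5a2 KD and Klf5 KD do with total or ERCC counts, and the groups of the other genes overlap in part. The share of all genes with such an order was not computed.

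The dKD was compared with control to ask how these genes behaved when both factors were depleted. Zfp352, the zinc finger gene, was higher in dKD and was the only member called there. It had 4 and 4 counts in control and 29, 30, 39 and 29 counts in dKD. In CPM these were 0.605 and 0.535 in control and 3.66, 4.24, 4.60 and 3.42 in dKD. Every dKD library was above both control libraries, and the dKD mean was 698% of control. The log2 fold change was 2.81 (SE 0.597, adjusted p = 0.0156, edgeR quasi-likelihood test with Benjamini-Hochberg adjustment, n = 4 against 2). A call needs a change of 2-fold or more with an adjusted p below 0.05. In this comparison 7.24% of 13724 genes were called and 3.38% were called higher, against 1 of the 5 members that passed the filter on low counts. Zfp352, Tcstv1 and Zscan4c were below the filter's minimum count of 10 in both control libraries and passed through dKD libraries alone. A member this low in control was tested only if it was higher in dKD. The 1 of 5 is therefore not a rate for all members. Without control replicate 1 the adjusted p was 0.110, and without control replicate 2 it was 0.132, at log2 fold changes of 2.89 and 2.73. The exact two-sided permutation test gave p = 0.0667, the smallest that 4 against 2 libraries allow.

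Zfp352 had intermediate levels in the single knockdowns. The Nr5a2 KD libraries had 1.29, 1.79 and 1.38 CPM, from 11, 13 and 11 counts. The Klf5 KD libraries had 2.15, 1.89 and 2.20 CPM, from 24, 16 and 15 counts. With TMM scaling the 4 groups thus stood in the order control, Nr5a2 KD, Klf5 KD and dKD without overlap. Taken singly, these upward steps were free of overlap in 19.9%, 15.7% and 12.3% of all genes tested. The share of genes with the whole order was not computed. With TMM factors, DESeq2 size factors, total counts or ERCC counts as the scaling, control lay below both single knockdowns and dKD above them. Nr5a2 KD and Klf5 KD overlapped with total counts, where the highest Nr5a2 KD library had 1.86 CPM and the lowest Klf5 KD library 1.80, and with ERCC counts, at 2.23 and 1.55 CPM. Means with SD were 0.570 ± 0.0493 CPM in control (n = 2), 1.49 ± 0.263 in Nr5a2 KD (n = 3), 2.08 ± 0.169 in Klf5 KD (n = 3) and 3.98 ± 0.539 in dKD (n = 4). Relative to control, this was 261% in Nr5a2 KD and 364% in Klf5 KD. The steps between neighbours were not called.

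Against control, the log2 fold change of Zfp352 was 1.38 in Nr5a2 KD (SE 0.859, adjusted p = 0.362, edgeR) and 1.85 in Klf5 KD (SE 0.799, adjusted p = 0.565). The unadjusted p in Klf5 KD was 0.0382, in a comparison where edgeR called 0% of 12838 genes and 8.47% had an unadjusted p under 0.05. Klf5 itself, the siRNA target, was at -2.03 there and was not called, at the smallest adjusted p of this fit, 0.0996. A lack of calls in this comparison therefore does not show a lack of change. The exact permutation test gave p = 0.1 for Zfp352 in both knockdowns, the smallest that 3 against 2 libraries allow. Klf5 KD and Nr5a2 KD differed by 0.47 (SE 0.556, adjusted p = 0.666), so the order of these neighbours is not established.

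The dKD was also set against each single knockdown. Zfp352 was higher in dKD than in Nr5a2 KD by 1.42 on the log2 scale (SE 0.426, unadjusted p = 0.00591, adjusted p = 0.999, edgeR). In this comparison 0% of 13017 genes were called, with 3.43% at an unadjusted p under 0.05. Klf5, at -1.31 there, was not called either (adjusted p = 0.999, edgeR). Zfp352 was higher in dKD than in Klf5 KD by 0.94 (SE 0.418, adjusted p = 0.167), a difference that missed the threshold. In that comparison 10.8% of 12904 genes were called and 5.38% were called higher. The exact permutation test gave p = 0.0286 for each, the smallest that 4 against 3 libraries allow, within a family of 42 tests over 7 genes and 6 comparisons. The interaction of the knockdowns, which asks whether both knockdowns together differ from adding up each one on the log2 scale, was -0.43 for Zfp352 (SE 0.699, adjusted p = 0.971, edgeR over 12 libraries). In that fit 0% of 14830 genes were called, and 4.82% had an unadjusted p under 0.05.

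**Figure D2:**
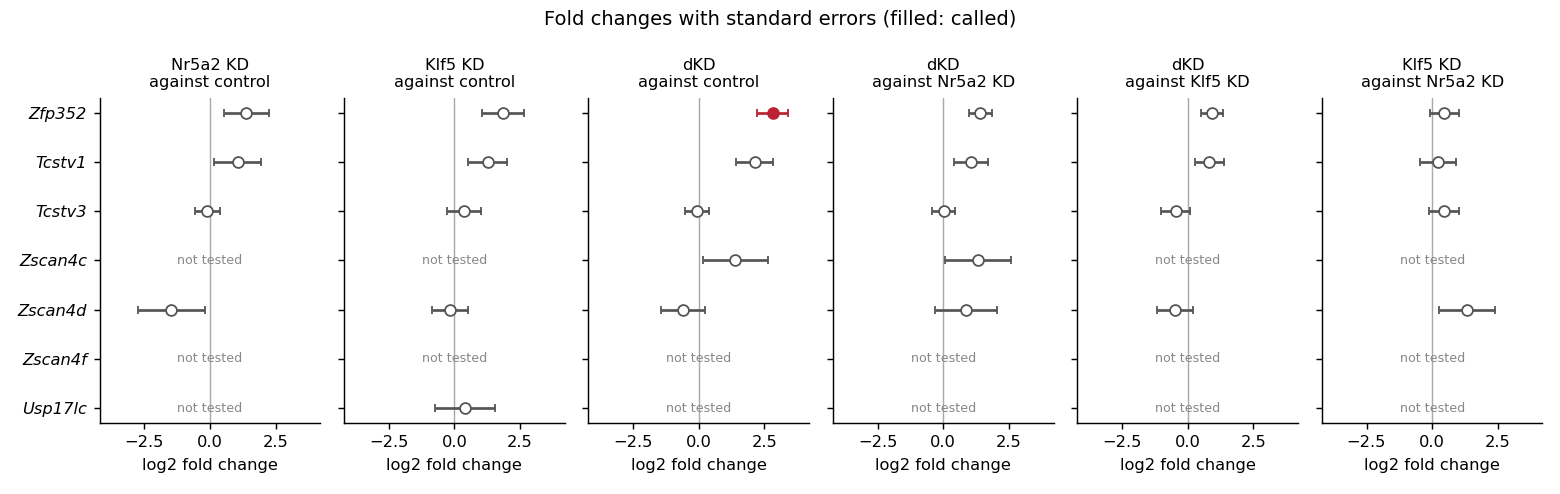
Log2 fold change of each gene in 6 comparisons (edgeR), with bars of 1 standard error and filled points for calls. Zfp352 in dKD against control, at 2.81, is the single filled point, and genes that did not pass the filter on low counts are written as not tested.

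Tcstv1 was the member nearest to Zfp352 in dKD against control. Its levels were 0.756 and 1.20 CPM in control and 1.64, 5.30, 6.83 and 3.06 CPM in dKD, from 5 and 9 counts against 13, 37.5, 58 and 26. All dKD libraries were above both control libraries, and they ranged from 1.64 to 6.83 CPM among themselves. The log2 fold change of 2.12 (SE 0.705, adjusted p = 0.0879, edgeR) missed the threshold. With each library left out the adjusted p ranged from 0.0339, without dKD replicate 1, to 0.364, and 5 of 6 such fits made no call. Over 11 other alternatives it ranged from 0.0244 to 0.183, with DESeq2 at 0.0414. Zfp352 and Tcstv1 were the 2 of 7 members whose dKD libraries all lay above control, as did 16.9% of all genes tested.

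In the single knockdowns Tcstv1 varied more. Nr5a2 KD had 3.53, 0.412 and 2.13 CPM, with replicate 2 below both control libraries. Klf5 KD had 1.60, 2.12 and 3.44 CPM, all above control. The log2 fold changes against control were 1.06 in Nr5a2 KD (SE 0.907, adjusted p = 0.533, edgeR) and 1.27 in Klf5 KD (SE 0.739, adjusted p = 0.638), and neither was called.

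Tcstv3, the other Tcstv member, differed little from control in its group means in Nr5a2 KD and dKD. It had 5.29 and 5.62 CPM in control, 7.23, 2.95 and 4.70 in Nr5a2 KD, 14.6, 3.40 and 2.61 in Klf5 KD, and 2.46, 5.73, 7.84 and 4.28 in dKD. The knockdown groups reached both above and below control. Within control, Nr5a2 KD and dKD the libraries stood in the same order as for Tcstv1, and in Klf5 KD they stood in the opposite order. Klf5 KD replicate 1 stood apart with 162 counts, where the other libraries of its group had 28.8 and 17.8, and this library also had the lowest mitochondrial share, 4.41%. With the mitochondrial share as a covariate in the fit, Tcstv3 was at -1.81 in Klf5 KD against control. Log2 fold changes against control were -0.09 in Nr5a2 KD (SE 0.476), 0.38 in Klf5 KD (SE 0.646) and -0.07 in dKD (SE 0.472), with adjusted p of 0.938, 0.907 and 0.953 (edgeR), and their signs changed with the scaling, with this covariate or when 1 library was left out. Without Klf5 KD replicate 1 the value in Klf5 KD was -0.85.

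Zscan4d, of the 3 Zscan4 members the one with the fewest shared stretches, varied widely between libraries of the knockdown groups. It had 1.97 and 1.87 CPM in control, and 0, 2.06 and 0 CPM in Nr5a2 KD. Klf5 KD had 1.08, 1.77 and 2.34 CPM, and dKD had 1.14, 0.141, 1.65 and 1.88 CPM. Nr5a2 KD replicates 1 and 3 had no count at all, where 13 to 15 counts were found in control and in Nr5a2 KD replicate 2. Against control it changed by -1.48 on the log2 scale in Nr5a2 KD (SE 1.28, adjusted p = 0.535, edgeR), -0.17 in Klf5 KD (SE 0.687, adjusted p = 0.965) and -0.61 in dKD (SE 0.834, adjusted p = 0.710). These directions are not settled, since a fit that included the mitochondrial share gave 1.10 in Nr5a2 KD and 0.48 in Klf5 KD, and the value was 0.42 in Klf5 KD and 0.27 in dKD with ERCC scaling. Without Nr5a2 KD replicate 2, Zscan4d was called lower in Nr5a2 KD than in control (adjusted p = 0.0268) and higher in Klf5 KD than in Nr5a2 KD (adjusted p = 0.0250), so that 1 library decides both.

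Zscan4c and Zscan4f were likewise at or near 0 in Nr5a2 KD replicates 1 and 3. Zscan4c had 3 and 3 counts in control, 0, 10 and 0 in Nr5a2 KD, 12, 2 and 0 in Klf5 KD, and 11, 7, 0 and 18 in dKD. Zscan4f had 3 and 1 counts in control, 1, 12 and 0 in Nr5a2 KD, 7, 9 and 9 in Klf5 KD, and 5.5, 1, 0 and 8 in dKD. Nr5a2 KD replicate 2 had the highest count of its group for all 3 copies. Zscan4c was tested against control in dKD only, at 1.40 (SE 1.24, adjusted p = 0.535, edgeR), and Zscan4f passed the filter in no comparison of 2 groups. All 3 Klf5 KD libraries of Zscan4f were above control, which made Zscan4f, Zfp352 and Tcstv1 the 3 of 7 members with no overlap there. Of the 12838 genes that passed the filter, 12.6% were higher without overlap, a base that does not include Zscan4f.

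Summed over all 9 annotated Zscan4 copies, pseudogenes included, Nr5a2 KD replicates 1 and 3 were again the lowest, in sums that contain the 3 members. The copies beyond these 3 do not set those libraries apart, since in control replicate 2 they had no counts. The sums were 7.41 and 2.41 CPM in control, 0.353, 8.11 and 0.752 in Nr5a2 KD, 7.81, 5.42 and 6.44 in Klf5 KD, and 4.23, 2.40, 2.12 and 7.30 in dKD. Nr5a2 KD held both the lowest and the highest library of all 12. The copies that made up a sum differed by library. Zscan4a gave 23 counts in control replicate 1 and 33 in Klf5 KD replicate 1 but at most 8 elsewhere, and Zscan4-ps1 had 11 counts in Klf5 KD replicate 3 and 3 in Nr5a2 KD replicate 2 and none in the other libraries. How reads were divided between near-identical copies and which copies were transcribed cannot be told apart in these counts.

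**Figure D3:**
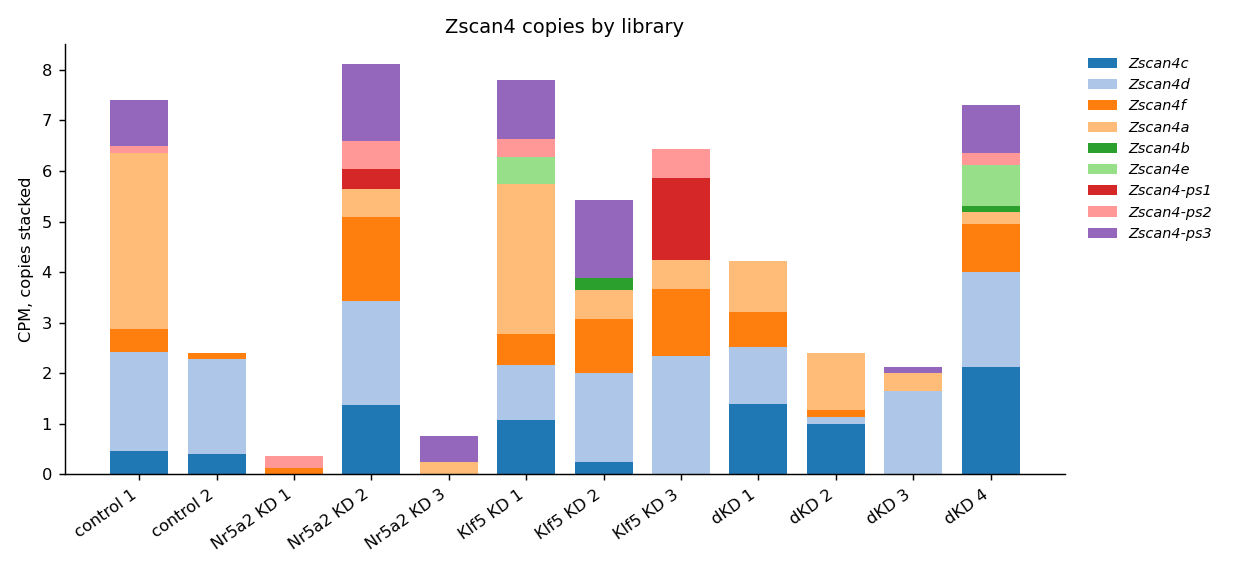
CPM of the 9 Zscan4 copies stacked for each of the 12 libraries. Nr5a2 KD replicates 1 and 3 sum to 0.353 and 0.752 CPM and Nr5a2 KD replicate 2 to 8.11 CPM, and the makeup of the bars differs between libraries of 1 group.

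Usp17lc, the deubiquitinase gene, was near 0 in Nr5a2 KD. It had 11.5 and 0 counts in control, 1, 0 and 1 in Nr5a2 KD, 19, 4 and 9 in Klf5 KD, and 9, 0, 5 and 3 in dKD. In CPM the control libraries were at 1.74 and 0, so the control group alone spans the whole range of the gene. Klf5 KD, at 1.70, 0.471 and 1.32 CPM, lay above Nr5a2 KD, at 0.118, 0 and 0.125 CPM, without overlap (exact two-sided permutation p = 0.1, the smallest possible). Usp17lc and Zfp352 were the 2 of 7 members with all Klf5 KD libraries above Nr5a2 KD at TMM scaling. Of the 12668 genes that passed the filter, a base that does not include Usp17lc, 15.7% were. Among comparisons of 2 groups, the gene passed the filter in Klf5 KD against control alone, at 0.41 (SE 1.14, adjusted p = 0.950, edgeR), and in the interaction fit it was at 2.06 (SE 1.88, adjusted p = 0.956).

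The most abundant gene of this family was not Usp17lc but Usp17lb, at a mean of 5.41 CPM per kb against 0.257. Usp17lb had 4.99 and 2.01 CPM in control, 7.06, 7.97 and 20.05 in Nr5a2 KD, 6.73, 0.943 and 0.293 in Klf5 KD, and 2.90, 5.37, 24.4 and 18.6 in dKD. The 3 highest libraries, Nr5a2 KD replicate 3 and dKD replicates 3 and 4, are among the 4 with a low mitochondrial share, and Klf5 KD replicate 1, the fourth of these, was the highest of its group. The part of the mitochondrial share in this was not tested. Usp17lb differed from control by 1.79 in Nr5a2 KD (SE 0.574, adjusted p = 0.0763, edgeR) and by 1.94 in dKD (SE 0.797, adjusted p = 0.157), and neither was called. Of the 11 further Zscan4 and Usp17l copies, 1 or 2 passed the filter in each comparison of 2 groups and 4 in the interaction, and none of these was called.

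**Figure D4:**
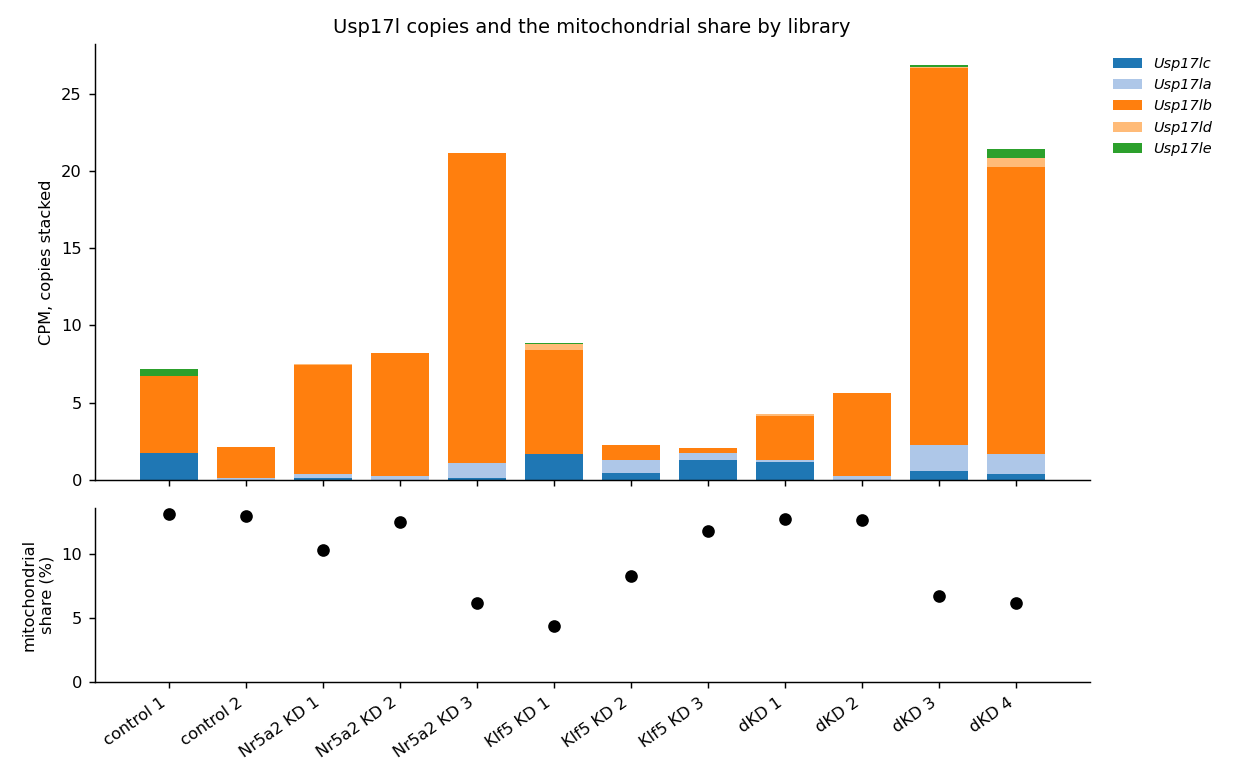
CPM of the Usp17l copies with at least 1 count stacked by library (top) and the share of counts from mitochondrial genes in the same libraries in percent (bottom). Usp17lb makes up most of the 3 tallest bars, at 20.05, 24.4 and 18.6 CPM, in libraries with a mitochondrial share of 6.17% to 6.75%.

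No member was called in the other comparisons. In Nr5a2 KD against control, edgeR called none of 4 tested members and none had an unadjusted p under 0.05, where 7.86% of 13262 genes were called and 24.1% had an unadjusted p under 0.05. Zfp352 was the 1 member of 7 with all Nr5a2 KD libraries above control, as were 19.9% of all genes tested. In Klf5 KD against control none of 5 tested members was called, and 1 of them, Zfp352, had an unadjusted p under 0.05. In dKD against Nr5a2 KD (none of 5) and dKD against Klf5 KD (none of 4), Zfp352 was again the 1 member with an unadjusted p under 0.05, as had 26.6% of all genes in the second of these. It was also the 1 member of 7 with no overlap, where 2.34% and 12.3% of all genes tested were higher without overlap. In Klf5 KD against Nr5a2 KD none of 4 was called and none had an unadjusted p under 0.05, where 11.4% of 12668 genes were called and 25.9% had an unadjusted p under 0.05. DESeq2 called no member in these 5 comparisons either, and its share of all genes called is not given here.

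Summed over the 7 genes, a library held 11.3 and 9.77 CPM in control, 12.3, 10.2 and 8.33 in Nr5a2 KD, 22.8, 10.9 and 13.2 in Klf5 KD, and 12.1, 16.5, 21.5 and 16.1 in dKD. The dKD libraries were all above control, and Tcstv3 gave the largest part of most sums. The mean was 97.8% of control in Nr5a2 KD, 149% in Klf5 KD and 157% in dKD, and the value in Klf5 KD rests on replicate 1, at 22.8 CPM. Without Tcstv3 the mean of the other 6 genes was 105% of control in Nr5a2 KD, 174% in Klf5 KD and 227% in dKD. Of these 6, Zfp352 (0.570 to 3.98 CPM) and Tcstv1 (0.981 to 4.21 CPM) rose most from control to dKD. Zscan4c (0.428 to 1.12 CPM) and Zscan4f (0.294 to 0.444 CPM) rose less, and Zscan4d (1.92 to 1.20 CPM) and Usp17lc (0.870 to 0.519 CPM) were lower. The sum thus does not stand for a shared rise of the members.

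A wider list of 43 genes was drawn up around the 2-cell programme and multicopy or germline genes active near that stage. Of this list, 1 of 30 tested genes was called in dKD against control, beside 7.24% of all genes, and it was higher, beside 3.38% called higher. It was Tdrd12, a Tudor domain gene known from the germline piRNA pathway, at 2.17 (SE 0.594, adjusted p = 0.0450, edgeR). In Nr5a2 KD Tdrd12 was also called higher (2.78, SE 0.526, adjusted p = 0.00774) and Ubtfl1, a gene related to the nucleolar factor UBF, was called lower (-1.08, SE 0.215, adjusted p = 0.0100), so that 2 of 25 tested were called, beside 7.86% of all genes. These comparisons share the control libraries. In Klf5 KD against control none of 30 was called by edgeR, beside 0% of all genes, and 1 had an unadjusted p under 0.05, beside 8.47%. This fit did not call Klf5 itself.

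In Klf5 KD against Nr5a2 KD, 7 of 28 tested genes of the list were called, beside 11.4% of all genes tested. Tdpoz2 (1.92, adjusted p = 0.00723), Gm20767 (4.15, adjusted p = 0.0113), AF067061 (2.93, adjusted p = 0.0329) and Ubtfl1 (1.18, adjusted p = 0.0116) were called higher in Klf5 KD. Tdpoz1 (-1.11, adjusted p = 0.0435), Tdrd12 (-1.62, adjusted p = 0.0294) and Rbmxl2 (-3.14, adjusted p = 0.0221) were called lower (edgeR). Tdpoz1 and Tdpoz2, members of a multicopy family with BTB domains, thus went in opposite directions. Stretches that they share with other genes were not measured, so their reads may be uncertain. In dKD against Klf5 KD, Tdpoz2 alone of 32 was called, beside 10.8% of all genes, and it was lower (-2.07, adjusted p = 0.00321). In dKD against Nr5a2 KD none of 30 was called, beside 0% of all genes, and 2 had an unadjusted p under 0.05, beside 3.43%. Klf5 was not called in this fit either.

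The most abundant genes of the wider list were far above the 7 members. Pramel7 had a mean of 1150 CPM in control, Pramel6 577.3, Sp110 573 and Eif1a 565 CPM, and none of these 4 was called in any knockdown against control. Duxf3, the row of the files that stands for Dux, held 0.5 counts over all 12 libraries. Pairs mapping to several places were left out and shared stretches were not measured for this row, so the value does not show that Dux was silent. Oocyte transcripts, listed as a sign of RNA kept from the egg, summed to 75.5 to 139 CPM in a library. Their mean sum was 82.4% of control in Nr5a2 KD, 74.6% in Klf5 KD and 73.5% in dKD, though dKD replicate 2 was the highest library of all 12. In dKD against control 1 of 8 tested, Nlrp5, was called lower and none higher, beside 7.24% of all genes tested that were called.

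Over the 12 libraries and 14830 genes, the genes whose log2 CPM went most closely with Zfp352 were Acer3 (Pearson r = 0.917), BB218582 (r = 0.893) and Ccdc68 (r = 0.875). For Tcstv1 they were Nfya (r = 0.893), Adam32 (r = 0.874) and Xntrpc (r = 0.850). For Tcstv3 they were Tmco1 (r = 0.932), Gm10131 (r = 0.879) and Pdia4 (r = 0.867). For Zscan4d they were Gm17234 (r = 0.882), Xrcc1 (r = 0.865) and Mtm1 (r = 0.860). The first genes for Zscan4c and Usp17lc were C87499 (r = 0.856) and Resf1 (r = 0.870). No member is in the first 3 of another, and these values are a description over libraries that share their groups and depth.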

How the data were processed

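RNA-seq of pooled 8-cell embryos was analysed from 12 libraries. The cDNA was amplified with a SMART-seq v4 kit and tagmented, which keeps neither strand nor molecular identifiers. The authors trimmed reads with Trim Galore 0.6.2, mapped them with STAR to GRCm38, and used featureCounts 2.0.1 to count pairs on exons. The values the authors deposited are estimated counts per gene, not normalized, in which a pair overlapping several genes is split and pairs mapping to several places are left out. They were rounded before testing. Genes were named from GENCODE M21 (55141 of 55401).

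Pairwise fits used the libraries of the compared groups in edgeR 4.0.16 (R 4.3.3) with TMM factors, filterByExpr (minimum count 10, minimum total 15), and glmQLFit and glmQLFTest. The p-values were adjusted by Benjamini-Hochberg over all genes tested. Calls required an adjusted p below 0.05 with a change of 2-fold or more. The interaction was fitted over 12 libraries. CPM values were computed with TMM factors over the 12 libraries. Exact two-sided permutation tests used log2(CPM + 1). Shared stretches were exact matches of 100 bases between GENCODE M21 transcripts of different genes, on either strand. Named genes were the 7 members, all copies whose symbols begin with Zscan4, Tcstv or Usp17l, and, of the wider list, those called and the 5 most abundant. Gm21818, which shares stretches with Tcstv1 and Tcstv3, was not followed. The members and lists were chosen with earlier results of these data known. Same-numbered libraries of Nr5a2 KD and dKD deviated in the same direction (r = 0.129, 0.222 and 0.254 over genes), those of other groups did not in every pair. Some pairs of Nr5a2 KD and dKD with different numbers did so too, such as Nr5a2 KD replicate 3 with dKD replicate 4 (r = 0.264). Others went apart, down to -0.250 for Nr5a2 KD replicate 3 with dKD replicate 2, so a pairing by number is not established. Alternatives were DESeq2 1.42.0, other scalings, no filter, 1 fit over all libraries, the replicate number as a block, the mitochondrial share as a covariate, values not rounded, other thresholds, and each library left out. Scripts were tested on simulated data. Figures were drawn with matplotlib.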

Additional observations from a re-analysis of the deposited data

How the results depend on the processing

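Counts of the 7 genes called were recomputed under each alternative. In dKD against control, where Zfp352 was called, Tcstv1 joined it, for 2 calls, with an unadjusted p, with library sizes from ERCC spike-ins, with DESeq2 and with no filter. The shares of all genes called under these alternatives are not given here, so the counts of calls cannot be set beside them. With each library left out the count ranged from 0 to 2 there, and it was 0 without either control library. With 1 control left, that library was assumed to vary like the other group. Zfp352 had a log2 fold change of 2.77 to 3.58 over 11 alternatives, with adjusted p of 0.00265 to 0.0284. With an unadjusted p, Zfp352 was 1 call in Klf5 KD against control and 1 in dKD against Nr5a2 KD. Left-out libraries gave 0 to 1 calls in Nr5a2 KD against control and in Klf5 KD against Nr5a2 KD, the 1 being Zscan4d without Nr5a2 KD replicate 2.

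With the replicate number as a block, the dKD against control kept 1 call, Zfp352 (2.78, adjusted p = 0.0284), and no count of calls of the 7 genes changed in any comparison. In the blocked fit the interaction turned to 0.10 for Tcstv1 and to 0.068 for Tcstv3.

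Scaling by ERCC counts moved the summed level of the 7 genes against control, on the log2 scale, to 0.73 (Nr5a2 KD), 1.28 (Klf5 KD) and 1.51 (dKD), and the median of all genes moved along with it (to 0.82, 0.66 and 0.84, from 0.04, 0.0046 and 0.05). With ERCC scaling, Tcstv3 was at 0.70 in Nr5a2 KD and 0.74 in dKD against control, Zscan4d at 0.42 in Klf5 KD and 0.27 in dKD against control, and Tcstv1 at -0.047 in Klf5 KD against Nr5a2 KD. With total counts, Tcstv3 was at 0.0037 in Nr5a2 KD and 0.071 in dKD against control. With the mitochondrial share as a covariate, Zscan4d was at 1.10 in Nr5a2 KD and 0.48 in Klf5 KD against control. Tcstv3 was then at -1.81 in Klf5 KD against control, -0.021 in dKD against Nr5a2 KD, 0.11 in dKD against Klf5 KD, -0.29 in Klf5 KD against Nr5a2 KD and 0.70 in the interaction. The cause was not tested.

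With each library left out in turn, Tcstv3 against control ranged between -0.43 and 0.17 (Nr5a2 KD), -0.85 and 0.76 (Klf5 KD), and -0.37 and 0.15 (dKD). It ranged from -0.29 to 0.37 in dKD against Nr5a2 KD, -0.87 to 0.77 in dKD against Klf5 KD, -0.73 to 0.84 in Klf5 KD against Nr5a2 KD and -0.79 to 0.86 in the interaction. Tcstv1 ranged from -0.26 to 0.88 in Klf5 KD against Nr5a2 KD and -0.69 to 0.40 in the interaction, Zscan4d from -0.43 to 0.081 and Usp17lc from -0.59 to 6.34 in Klf5 KD against control, and Usp17lc from -3.82 to 3.08 in the interaction. Low counts limit Zscan4c, Zscan4f and Usp17lc most, and Zscan4f could be compared between 2 groups only by its libraries and the permutation test.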
